A study of Mus musculus with 13 samples.

Results

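Transcripts of the proteasome subunits were measured in proximal small intestine from 13 male C57BL/6J mice, 5 fed chow with 0.005% ezetimibe and 8 fed regular chow. The members were all array probes whose symbol begins with Psma, Psmb, Psmc, Psmd or Psme followed by a digit, apart from Psmb8 and Psmb9. They came to 58 probes for 39 genes, out of 25697 probes and 18097 symbols on the array. Each mouse gave total RNA for 1 array, an Illumina MouseRef-8 v2.0 bead array with 1 colour. Both groups were wild type as far as the labels go, and the sources used here give neither the age of the mice nor the length of feeding.

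Ezetimibe lowers cholesterol uptake from the gut by blocking the enterocyte sterol transporter NPC1L1. The proteasome is the protease that degrades proteins tagged with ubiquitin. Its barrel-shaped core particle is built of outer rings of alpha subunits (Psma genes) and inner rings of beta subunits (Psmb genes), some of which carry the proteolytic sites. Its regulatory particle binds the ubiquitin chain, unfolds the substrate with a ring of ATPases (Psmc genes) and passes it into the core, helped by further base and lid subunits (Psmd genes).

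Subunit genes are known to rise together when proteasome activity is limiting, through the transcription factor NRF1 (gene Nfe2l1). NRF1 is made in the endoplasmic reticulum membrane, extracted by VCP, stripped of its sugars by NGLY1 and cut by the protease DDI2. NRF2 (gene Nfe2l2), held low by KEAP1, induces detoxification and glutathione genes, and in mice some proteasome subunit genes have been placed among its targets. Both factors bind the antioxidant response element (ARE) with a small MAF partner. The comparison of ezetimibe with control intestine was therefore made over the subunit genes and over genes of each factor's own pathway.

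The rule takes in a few genes that are not constitutive subunits. Psmb10 replaces Psmb7 in the immunoproteasome, the form induced by interferon-gamma. Psme1 and Psme2 encode the interferon-inducible activator PA28, Psmd5, Psmd9 and Psmd10 are chaperones of regulatory particle assembly, and Psmc3ip encodes a meiotic recombination cofactor that only shares the name. These genes were kept and are described as classes of their own or named.

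The arrays lay on 2 slides, with 2 ezetimibe and 4 control arrays on slide 1 and 3 ezetimibe and 4 control arrays on slide 2. Median signal per array was 146.9 to 152.8 on slide 1 and 120.7 to 127.9 on slide 2, with 11085 to 12380 probes detected. Enterocyte markers Vil1, Apoa1, Apoa4, Sis, Slc5a1 and Cybrd1 were detected on all 13 arrays, whereas the probes of Fabp1 and Fabp2 were detected on none. The mean log2 level of exocrine pancreas markers varied widely, from 6.04 to 13.04 over ezetimibe arrays and from 5.91 to 12.06 over control arrays. Above 0 lay 13 of 13 markers, against 49.7% of all tested probes. Their median log2 difference was 0.62, and none passed the test. By slide, the median was -0.20 (slide 1) and 1.09 (slide 2). Above 0 on both slides lay 4 of 13, against 27% of all tested probes. With the mean pancreas marker level as a covariate, the medians given below were -0.0011 for the core and 0.046 for the regulatory particle. In that fit 0 proteasome probes passed. In whole tissue, fewer cells of a type and less RNA per cell cannot be told apart.

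Promoter sequence was set beside the expression values because NRF1 and NRF2 act through the ARE. The core TGACNNNGC was searched on both strands from 250 bases before to 50 bases after the start that the RefSeq promoter table of GRCm38.p6 gives, with 37 promoters for 34 of the 39 genes. For 9 of the 37, that start is not the outer end of the gene in the gene table. The core lay in 6 of the 37 promoters (16.2%), against 4071 of 32851 promoters in the whole table (12.4%). CCAAT, searched on both strands in the same window, lay in 13 of 37 (35.1%), against 12289 of 32851 (37.4%). None of the ARE matches printed here overlapped a CCAAT. The genes with a match were Psmb5, Psmb6, Psmd9, Psmd12, Psme4 and Psmc6, of which Psmc6 had no detected probe. Psmb1, Psmb2, Psmb7, Psmc3 and Psmd7 had no promoter there and were not searched. The stretches of 4 members are shown on the gene's strand, 5′ to 3′, with the match in capitals. They are Psmb5 at chr14:54618009-54618068 (minus strand), Psmb6 at chr11:70525327-70525356 (plus), Psmd9 at chr5:123228130-123228189 (plus) and Psmd12 at chr11:107479278-107479337 (plus). The start used for Psmb6 lies 33 bases inside the gene, so that its 30 printed bases are within the annotated gene and not before it. The match in Psmd12 is on the opposite strand and appears as its reverse complement.
Psmb5: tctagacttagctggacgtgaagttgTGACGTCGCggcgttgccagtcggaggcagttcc
Psmb6: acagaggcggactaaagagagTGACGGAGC
Psmd9: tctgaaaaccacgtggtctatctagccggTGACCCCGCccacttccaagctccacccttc
Psmd12: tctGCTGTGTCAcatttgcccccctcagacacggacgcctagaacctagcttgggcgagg
For comparison, 2 genes of the NRF2 list that held the core are shown, Gclm at chr3:122245397-122245456 (plus, match on the opposite strand) and Gsta3 at chr1:21240438-21240497 (plus).
Gclm: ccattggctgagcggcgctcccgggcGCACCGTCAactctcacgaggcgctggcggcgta
Gsta3: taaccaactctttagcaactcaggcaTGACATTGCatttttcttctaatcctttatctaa
Matches in the promoters of other genes of that list, such as Nqo1 and Cbr3, are not given here. Gclm and Gsta3 were picked from the NRF2 list, and the share of its promoters with the core was not counted. A match is a string of letters and not a measured binding site.

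No proteasome probe passed the test in either direction. A probe was tested where its detection p was under 0.05 on at least 5 of the 13 arrays, which kept 44 of the 58 member probes and 33 of the 39 genes. In a limma fit with slide and diet over all 11887 tested probes, 0 of 44 member probes had a Benjamini-Hochberg adjusted p under 0.10, where 0.252% of all tested probes did (30 probes, 28 higher and 2 lower with ezetimibe). The lowest adjusted p of a member in limma was 0.745. At an unadjusted p under 0.05 there was 1 member, Psmd14 (2.27% of the 44), higher with ezetimibe, against 6.18% of all tested probes, of which 3.68% were higher and 2.5% lower.

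Most differences were close to 0, with intervals of varying width. The log2 difference, ezetimibe minus control with slide in the model, had a median of 0.026 over the 44 member probes and ran from -0.12 to 0.42, beside a median of -0.0010 over all tested probes. The median size of the difference was 0.046 for members and 0.092 for all tested probes, and the median standard error was 0.087 and 0.133. The 95% interval lay wholly within 1.2-fold in either direction for 24 of the 44 member probes (54.5%), against 17.9% of all tested probes, and reached beyond it for the other 20. Within 1.5-fold lay 42 of the 44 (95.5%), against 86.1% of all tested probes. The members were not matched with probes of like signal, so these shares do not set the proteasome apart from other genes.

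More members lay above 0 than below, but not on each slide. Of the 44 member probes, 30 (68.2%) had a positive difference, against 49.7% of all tested probes. Positive on both slides taken separately were 12, against 27% of all tested probes, and negative on both were 8, against 27.9%. In 0 of the 44 did all 5 ezetimibe arrays lie above every control array of their own slide, which 0.623% of all tested probes did, and in 0 did they all lie below (0.168% of all).

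**Figure D1:**
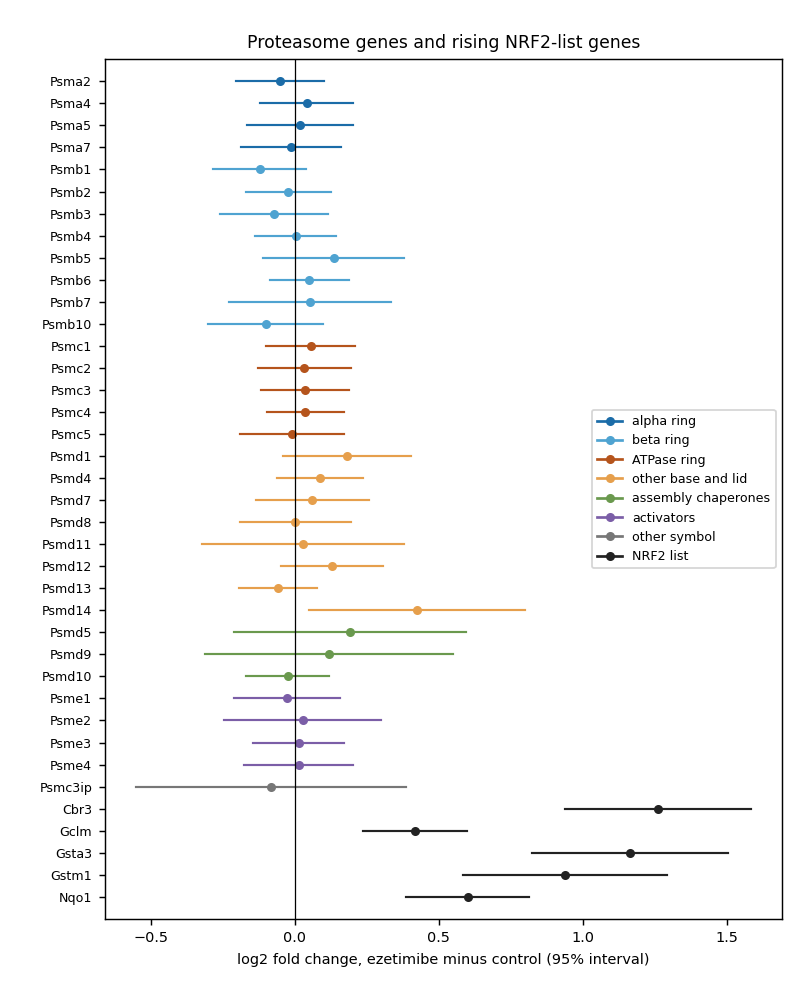
Log2 difference, ezetimibe minus control, with its 95% interval from limma (horizontal axis) for the brightest tested probe of each proteasome gene, grouped by class. Intervals of proteasome genes other than Psmd14 cross 0, and the 5 NRF2-list genes at the bottom, shown because they passed the test, lie from 0.42 to 1.26.

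In the core particle, 12 genes were tested and 6 lay above 0 (50%, against 49.7% of all tested probes). The 12 core genes had a median log2 difference of -0.0052, with a range of -0.12 to 0.13. Under median scaling it was 0.15, where the median of all tested probes was itself 0.088. Intervals lay within 1.2-fold for 8 of the 12 and within 1.5-fold for all 12.

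The alpha subunits form the outer rings, whose tails gate the entry of substrate. The 4 tested genes had a median difference of 0.0016. Psma4 was highest at 0.041 ± 0.076 (SE of the fit, as for all such values), with a 95% interval of -0.12 to 0.20, and Psma2 was lowest at -0.051 ± 0.071 (-0.20 to 0.10). Psma5 had 0.017 ± 0.087, and Psma7 had -0.014 ± 0.082 on its brighter probe and 0.011 ± 0.079 on the other.

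Among the beta subunits, Psmb5 carries the chymotrypsin-like site, the main target of proteasome inhibitor drugs. Its slide-adjusted log2 intensity was 9.02, 8.63, 8.72, 8.44 and 8.66 in the 5 ezetimibe mice, against a lowest, median and highest of 8.17, 8.56 and 8.82 in the 8 control mice. Ezetimibe 1 stood above every control and the other 4 lay among them. The means were 8.69 ± 0.21 (SD, n = 5) with ezetimibe and 8.56 ± 0.20 (SD, n = 8) in controls. The difference was 0.13 ± 0.12 (-0.11 to 0.38, limma adjusted p = 0.909), made up of 0.33 on slide 1 and -0.016 on slide 2.

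Psmb6 carries the caspase-like site. Its levels were 11.05, 10.88, 10.85, 10.95 and 10.95 with ezetimibe, against 10.76, 10.89 and 11.02 as lowest, median and highest in controls. The groups overlapped almost wholly. The difference was 0.051 ± 0.065 (-0.087 to 0.19, limma adjusted p = 0.938), that is, between 5.82% lower and 13.9% higher with ezetimibe.

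Psmb7 carries the trypsin-like site and had 3 tested probes. The brightest gave 10.64, 9.99, 10.06, 10.51 and 10.09 with ezetimibe, against 9.86, 10.15 and 10.58 as lowest, median and highest in controls. Ezetimibe 1 and 4 were high and the other 3 sat below the control median. The 3 probes gave differences of 0.052 ± 0.13, 0.084 ± 0.089 and 0.14 ± 0.10, none of which passed (limma adjusted p = 0.975, 0.923 and 0.884).

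The lowest core values were those of Psmb1, a non-catalytic beta subunit, and Psmb10. Psmb1 had 11.62, 11.43, 11.30, 11.47 and 11.66 with ezetimibe, against 11.48, 11.60 and 11.78 as lowest, median and highest in controls. Ezetimibe 2, 3 and 4 lay below every control, and the difference was -0.12 ± 0.076 (-0.28 to 0.039, limma adjusted p = 0.859). Psmb2, Psmb3 and Psmb4, also non-catalytic, had -0.022, -0.072 and 0.0037 on their brightest probes. Psmb10, the inducible counterpart of Psmb7, had 12.39, 12.64, 12.29, 12.37 and 12.54 with ezetimibe, against 12.29, 12.56 and 12.76 as lowest, median and highest in controls. Its 2 probes gave -0.10 ± 0.094 and -0.097 ± 0.11, with the groups overlapping on both.

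**Figure D2:**
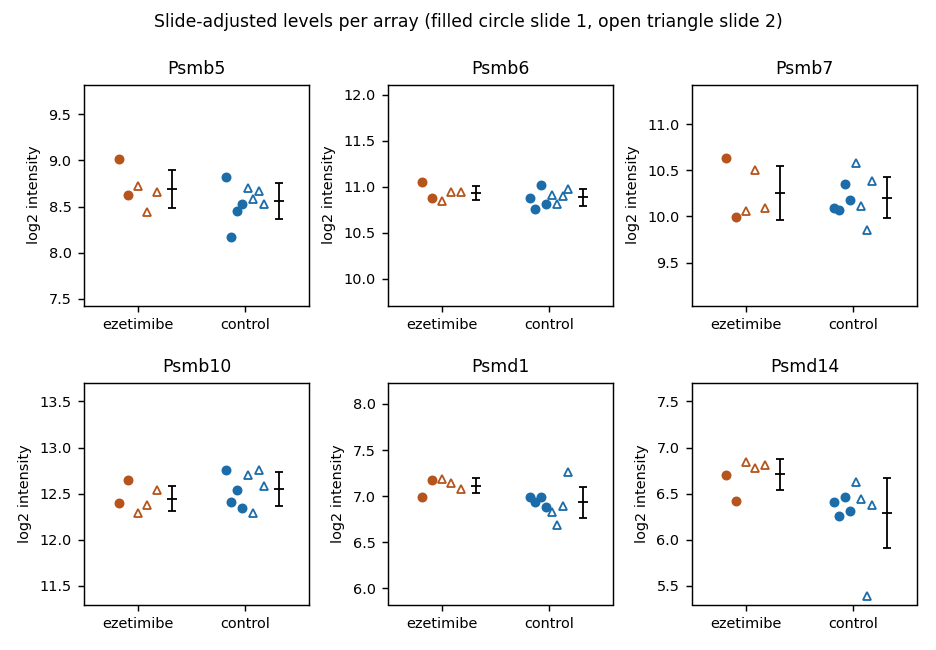
Slide-adjusted log2 intensity of selected proteasome genes in each mouse, ezetimibe left of control, with group means and SD. Circles are slide 1 and triangles slide 2. The groups overlap in each of the 6 panels, and control 7 stands at 5.39 for Psmd14.

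Most genes of the regulatory particle lay slightly above 0. Of its 13 tested genes, 11 did (84.6%), against 49.7% of all tested probes. The 13 genes had a median log2 difference of 0.036 and a range of -0.057 to 0.42. Under median scaling the median was 0.20, again beside 0.088 for all tested probes. Above 0 on both slides taken separately were 7 of the 13, against 3 of 12 in the core and 27% of all tested probes. All genes were read on the same arrays, so they are not separate observations. Intervals lay within 1.2-fold for 9 and within 1.5-fold for 12 of the 13.

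The ATPases unfold the substrate. The 5 tested genes ran from -0.0097 to 0.055, with a median of 0.036. Psmc1 was highest at 0.055 ± 0.072 (-0.098 to 0.21, limma adjusted p = 0.944) and Psmc4 had 0.036 ± 0.063 (-0.097 to 0.17), with Psmc2 at 0.033 and Psmc3 at 0.036. Psmc5 had -0.0097 ± 0.085 on its brighter probe and -0.062 on the other. Psmc3ip, the unrelated recombination gene, was detected on 4 ezetimibe and 6 control arrays and had -0.083 ± 0.22.

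The other base and lid subunits include the scaffold PSMD1, the ubiquitin receptor PSMD4 and the deubiquitinase PSMD14, which removes the ubiquitin chain as the substrate enters. The 8 tested genes had a median difference of 0.074, with 0.13 on slide 1 and 0.030 on slide 2. Psmd14 had 6.70, 6.42, 6.84, 6.78 and 6.81 with ezetimibe, against 5.39, 6.39 and 6.63 as lowest, median and highest in controls. Ezetimibe values lay above all controls in 4 of 5 mice, and control 7, at 5.39, lay far below the other controls, which had 6.26 to 6.63. The means were 6.71 ± 0.17 (SD, n = 5) with ezetimibe and 6.29 ± 0.38 (SD, n = 8) in controls.

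The difference for Psmd14 was 0.42 ± 0.18, or 1.34-fold with a 95% interval of 1.04 to 1.74. Over all tested probes it failed the threshold (limma adjusted p = 0.745, 0.0289 before adjustment). Without control 7 the log2 difference was 0.27 (limma adjusted p = 0.743). By slide it was 0.20 (slide 1) and 0.60 (slide 2), and the product of slide and diet had an unadjusted p of 0.270 in limma. Psmd14 lies at chromosome 2, positions 61711694 to 61800376 (GRCm38.p6). Its raw signal was dim, 123.2 to 301.9, beside median array signals of 120.7 to 127.9 on slide 2 and 146.9 to 152.8 on slide 1. The size of its difference varied with the processing. It was 0.16 without background correction, 0.24 with normexp at an offset of 50, and 0.081 in the authors' deposited processed values. With array position as a covariate it was 0.56.

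Psmd1 had 7.00, 7.17, 7.19, 7.15 and 7.08 with ezetimibe, against 6.69, 6.91 and 7.27 as lowest, median and highest in controls. All 5 ezetimibe values lay above the control median and below control 8, the highest. The difference was 0.18 ± 0.10 (-0.042 to 0.40, limma adjusted p = 0.841), with 0.13 on slide 1 and 0.22 on slide 2. Psmd12, a lid subunit whose promoter stretch is printed above, had 0.13 ± 0.083 on its bright probe (0.23 on slide 1, 0.053 on slide 2). Psmd4, Psmd7 and Psmd11 had 0.088, 0.061 and 0.028. The lowest values were 0.0018 for Psmd8 and -0.057 ± 0.064 (-0.19 to 0.079) for Psmd13, both lid subunits.

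The assembly chaperones and the activators showed no passing gene either. Psmd5 had 0.19 ± 0.19 and Psmd9, detected on 4 ezetimibe and 6 control arrays, had 0.12 ± 0.20, both with wide intervals, and Psmd10 had -0.025 ± 0.068 on its brightest probe. The 4 activator genes ran from -0.028 to 0.028. Psme1 and Psme2 had -0.028 ± 0.086 and 0.028 ± 0.13, Psme3, the nuclear activator, had 0.013 ± 0.074 and Psme4, the activator PA200, had 0.013 ± 0.089.

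Among the 5 tested genes with an ARE core in the promoter, Psmb5, Psmb6, Psmd9, Psmd12 and Psme4, none passed, and their differences ran from 0.013 to 0.13.

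Where a gene had several tested probes, their differences did not always share a sign. They lay on both sides of 0 for Psma7, Psmb2, Psmd10, Psmd12 and Psme1, and on 1 side for Psmb7, Psmb10, Psmc5 and Psmd7. The lowest and highest were -0.022 and 0.040 for Psmb2, -0.025 and 0.071 for Psmd10, and -0.028 and 0.030 for Psme1. The widest gap among the 9 genes with several tested probes was 0.14, for Psmd12. The second Psmd12 probe was detected on 2 ezetimibe and 3 control arrays. The remaining 14 member probes were not tested, and for Psma1, Psma3, Psma6 and Psmc6 no probe was detected on any array. Psmd2 and Psmd6 had probes detected on at most 2 control arrays and 1 ezetimibe array. These 6 genes have no result here.

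Read array by array, the core genes did not separate the groups. The median deviation of the core genes with slide taken out ran from -0.11 to 0.17 over ezetimibe arrays and from -0.11 to 0.12 over control arrays, on the log2 scale. Both extremes were ezetimibe mice, number 1 the highest and number 2 the lowest. For the regulatory particle it ran from -0.0060 to 0.074 over ezetimibe arrays and from -0.13 to 0.10 over controls, so that the ezetimibe arrays lay inside the control range.

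**Figure D3:**
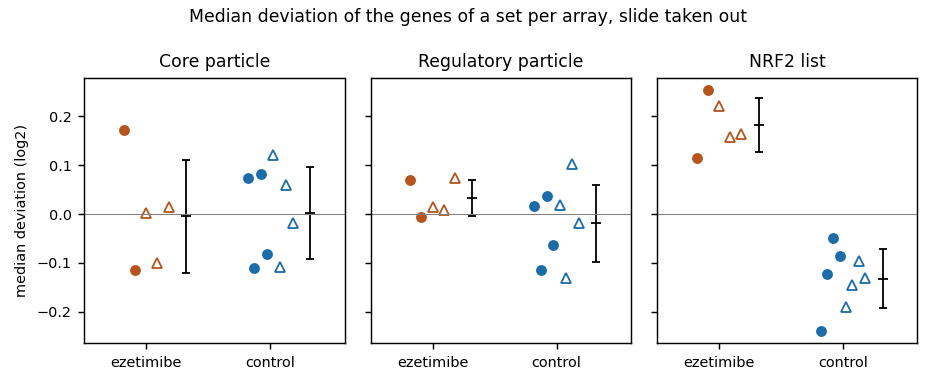
Median deviation with slide taken out (log2) of the core, regulatory particle and NRF2 list genes on each array, ezetimibe left of control. The core and regulatory values of the groups overlap, and the NRF2 list values, from a list chosen with results of these data known, lie from 0.11 to 0.25 with ezetimibe and from -0.24 to -0.049 in controls.

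Differences between slides were common, among proteasome probes as on the array as a whole. A difference between slides passed an adjusted p of 0.10 in limma for 30 of the 44 member probes, against 53.3% of all tested probes, with 18 lower and 12 higher on slide 2, against 24.5% lower and 28.8% higher of all tested probes. The log2 slide difference ran from -1.56 to 0.53 and was larger than the diet difference for 39 of the 44, against 78.9% of all tested probes. No product of slide and diet passed for any member, where 0% of all tested probes did. At an unadjusted p under 0.05 there were 0 members, against 2.67% of all tested probes.

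**Figure D4:**
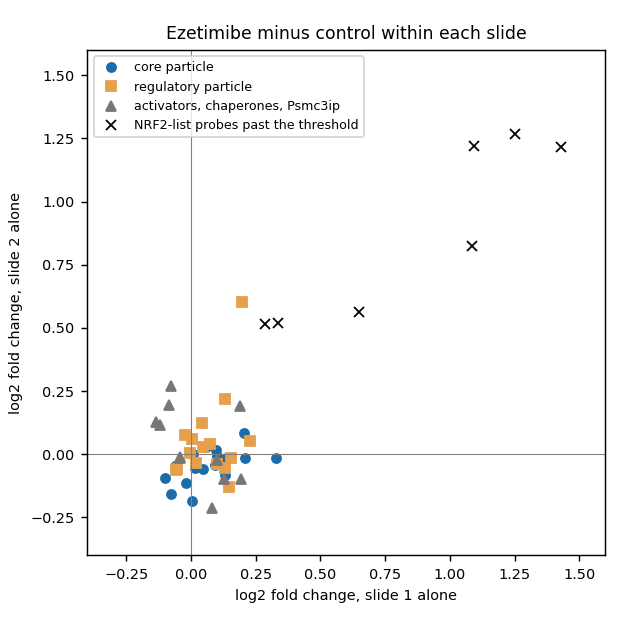
Log2 difference, ezetimibe minus control, of each tested proteasome probe on slide 1 (horizontal axis) and slide 2 (vertical axis), by particle, with NRF2-list probes past the threshold as crosses. Proteasome points lie on both sides of 0 on both axes, with Psmd14 at 0.20 and 0.60.

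The genes that make and process NRF1 gave no passing probe. Of 11 genes tested, 0 passed in either direction, and the median difference was -0.0060. Nfe2l1 had 0.10 ± 0.11 (limma adjusted p = 0.928), Ddi2 had -0.050 ± 0.14 (limma adjusted p = 0.975) and Vcp had 0.0062. The 2 probes of Ngly1 were detected on 0 arrays. The smallest p in the list belonged to Fbxw7, a ubiquitin ligase subunit that marks NRF1 for degradation, at 0.28 ± 0.11 (limma adjusted p = 0.745), followed by the MAF partner Mafg at 0.16 ± 0.11 (limma adjusted p = 0.875).

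Other genes tied to proteasome load gave no passing probe either. Among 11 assembly and accessory genes 0 passed, with a median of -0.037, and Pomp, the core assembly factor, had -0.040. Zfand2a, an arsenite-inducible gene, had 0.23 ± 0.16 and Psmg2, a core assembly chaperone, had -0.15 ± 0.11 (limma adjusted p = 0.875 and 0.884). Of 11 ubiquitin and shuttle genes 0 passed, with a median of -0.023. The smallest p values there belonged to Sqstm1, the autophagy receptor p62, at 0.23 ± 0.076 (limma adjusted p = 0.566), and Nploc4, a VCP cofactor, at 0.26 ± 0.089 (limma adjusted p = 0.594).

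Some NRF2 targets of detoxification and glutathione metabolism rose. Of 19 genes of the list tested on their brightest probe, 5 rose, 0 fell and 14 did not pass, where 0.236% of all tested probes rose, with a list median of 0.28 against -0.0010 over all tested probes. The list was chosen with earlier results of these data known, so its count is no independent evidence of direction. The lowest of the 19 was Hmox1, heme oxygenase, at -0.34, which did not pass. Nqo1, a quinone reductase, had 10.37, 9.97, 10.17, 10.09 and 10.08 with ezetimibe, and controls ran from 9.25 to 9.79, with no overlap. It rose by 0.60 ± 0.10 (0.39 to 0.81, limma adjusted p = 0.0142). Cbr3, a carbonyl reductase, rose by 1.26 ± 0.15 on one probe and 1.31 ± 0.19 on the other (limma adjusted p = 0.000643 and 0.00361).

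The glutathione transferases Gsta3 and Gstm1 rose by 1.16 ± 0.16 and 0.94 ± 0.17 (limma adjusted p = 0.00217 and 0.0235), though a second probe of Gsta3 had 0.19 and of Gstm1 -0.42, neither of which passed. Gclm, the modifier subunit of the enzyme that limits glutathione synthesis, rose by 0.42 ± 0.085 (0.24 to 0.60, limma adjusted p = 0.0772). A dimmer probe of Gss, glutathione synthetase, rose by 0.44 ± 0.092 (limma adjusted p = 0.0886), and its brightest probe had 0.42 ± 0.093 (limma adjusted p = 0.109). The calls of Gclm and Gss were lost in 17 and 20 of 28 other settings, and each other call of the list in at least 1. Transcripts of the regulators had values near 0, with -0.029 ± 0.12 for Nfe2l2 and -0.021 ± 0.094 for Keap1.

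Genes of the immunoproteasome and of interferon-gamma signalling gave no passing probe, with 0 of 15 tested and a median difference of -0.066. Above 0 lay 2 of 15, against 49.7% of all tested probes. By slide, the list median was 0.11 (slide 1) and -0.18 (slide 2). Below 0 on both slides lay 3 of 15, against 27.9% of all tested probes. Psmb8 had -0.043 ± 0.10 and Psmb9 had -0.079 ± 0.17 (limma adjusted p = 0.974 and 0.971). Both were at 0.15 on slide 1, and on slide 2 they were at -0.19 and -0.26. Tapbp, a peptide-loading chaperone, had -0.32 ± 0.16, and B2m, the light chain of MHC class I, had -0.10 ± 0.091 (limma adjusted p = 0.828 and 0.912). Markers of T and NK cells lay below 0, 5 of 5 tested with a median of -0.46 and none passing. Of all tested probes, 49.7% lay above 0. The markers were read on the same arrays, so they are not separate observations. By slide, the markers had medians of -0.52 (slide 1) and -0.47 (slide 2). Their mean log2 level was 7.68 to 9.09 over ezetimibe arrays and 7.77 to 9.26 over control arrays, and their part in the list was not tested.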

How the data were processed

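Per the file headers, the deposited unnormalized table gives average bead intensities, linear and uncorrected. It pairs each deposited intensity with a detection p-value. The authors also deposited processed values, treated here as intensities on a linear scale and taken to log2. Per the series' design text, those had been quantile-normalized and batch-corrected, and their scale and centring are not stated. From the deposited intensities, log2 values were made with neqc (limma 3.58.1, R 4.3.3), which subtracts background by normexp using detection p-values, adds an offset of 16 and equalises quantiles. Slide, read from the array names, was a fixed term beside diet. Differences were tested with lmFit and eBayes (trend = TRUE), a step first tested on simulated data. Benjamini-Hochberg adjustment ran over all 11887 tested probes. The authors' own moderated statistic was not run. A gene was described by its brightest tested probe, and levels of different probes were not compared. Slide-adjusted levels have the fitted slide difference taken out.

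Probe symbols were updated through a RefSeq table of GRCm38.p6, which renamed 0 members. A further 2 probes matched the rule only under a newer symbol and were not taken in. The members and the gene lists were chosen with earlier results of these data known. Named genes were, per class, the 2 highest and 2 lowest, then the catalytic subunits, Psmb10, Psmd14, the activators and the regulators, and per list the genes past the threshold or the 2 with the smallest p. Psmb2, Psmb3, Psmb4, Psmc3, Psmd4, Psmd7, Psmd11, Psmd12, Psmc3ip, Pomp, Vcp, Hmox1 and the cell type markers were added after their values were seen. The labels call the mice biological replicates. The number of arrays limits the precision. Alternatives covered background correction, scaling, the processed values, the filter, slide, position, moderation, a replicate block, the threshold, the value per gene and leaving out each array. A pancreas marker covariate, and leaving out ezetimibe 4 and control 4, arrays high in those markers, were added after seeing the data. By the slide-adjusted level, control 5 (12.06) stood above control 4 (11.59) and was kept.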

Additional observations from a re-analysis of the deposited data

Results flagged for a closer look

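Of 52 groups of slide-adjusted values of proteasome probes, 3 held 1 mouse far from the others of its group. Chance was taken to give about 5% of such groups, a share that holds only for separate groups. These groups were read on the same arrays. Psmd14, the deubiquitinase, was at 5.388 in control 7, against 6.26 to 6.63 in the other controls. Psme4, the activator PA200, was at 10.04 in control 6, against 10.38 to 10.51 in the other controls. A probe of Psmc5, an ATPase, was at 9.858 in ezetimibe 1, against 9.75 to 9.78 in the other ezetimibe mice.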

How the results depend on the processing

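No proteasome probe passed in any of the 29 other settings. Before adjustment, 0 members had p under 0.05 in 11 settings, 1 in 16 and 2 in 2. Over all tested probes 30 passed, with 17 without a slide term, 6 on slide 1 alone, 10 on slide 2 alone and 20 to 45 when an array was left out. Under median scaling the core median was 0.15 and the regulatory median 0.20, which put 43 of 44 members above 0; relative to the median of all tested probes there (0.088) they were 0.058 and 0.11. Leaving out an array gave -0.076 to 0.037 for the core and 0.026 to 0.066 for the regulatory particle. The 24 named member probes gave 669 values over the settings, of which 72 changed sign and 0 passed. Psmd14 ran from 0.081 in the deposited processed values to 0.60 on slide 2 alone. The calls of Gclm, Gss, Gstm1 and Nqo1 were lost in 17, 20, 5 and 3 of 28 settings, that of Gsta3 in 1 and those of the 2 Cbr3 probes in 3 and 1. The causes were not tested. Replicate numbers shared by the groups gave no clear pairing of the arrays. Of 5 pairs, 2 correlated above 0.1 and 1 correlated best with its own number. These correlations cannot settle whether the mice were paired in the design. With the replicate number as a block, 23 probes passed and 0 members did, with medians of -0.022 for the core and 0.086 for the regulatory particle. Dim signal limits 14 member probes, which gave no value.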

Other observations

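Some member probes had signal in the range of the array background. The 14 untested probes had raw signals of 100.4 to 178.2, and those detected on 0 arrays reached at most 151.5. Among them are the probes of Psma1, Psma3 and Psma6, of the core particle, and Psmc6, of the regulatory particle. Other subunits of the same rings gave clear signal on all 13 arrays. The untested probes gave no level for their genes.

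Genes of dividing crypt cells, 8 tested, all lay below 0 with a median difference of -0.17, and none passed. Of all tested probes, 49.7% lay above 0. By slide, the crypt median was -0.0053 (slide 1) and -0.28 (slide 2). Below 0 on both slides lay 4 of 8, against 27.9% of all tested probes. Smooth muscle genes had a median of -0.0014.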
